A study of Mus musculus with 3 samples.

Results

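The major histocompatibility complex (MHC) genes and the genes that load peptides onto MHC molecules were followed in kidney RNA of mice 1 day after an injected antibody against the glomerular basement membrane (anti-GBM). The 10 genes were H2-D1, H2-K1, H2-Q7, B2m, Tap1, Tap2, Tapbp, H2-Aa, H2-Ab1 and Cd74, out of 10698 genes that have an array row naming them alone. They were picked as a family with the log ratios of this same comparison in view, so their values are given as a description without a test. The group was 3 BALB/c mice with anti-GBM glomerulonephritis, called mice 11, 12 and 13, each on its own 2-colour array. The other channel of every array held a single pool of kidney RNA from 5 normal BALB/c mice, and no other agent or allele is named in the labels. The control is thus 1 sample, and the spread between normal mice is not in any value. All arrays had the anti-GBM RNA in Cy5 and the pool in Cy3, so a dye bias of a row was not balanced by a swap.

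The deposited table holds 1 log ratio per row and array, with 16281 rows. Its medians are 0 on each array, and each array was centred here on the median of its values other than 0 (0.0077, 0.0105 and 0.01 for mice 11, 12 and 13). The base of the logarithm is not stated and stays unknown, as does the centring used by the authors. The direction is not stated either. A positive value is taken as more RNA in the anti-GBM kidney. Tables of this kind mostly give Cy5 over Cy3, which makes that reading likely, and with the reverse order every sign below would turn. An exact 0, found in 29.5% to 33.7% of the values of an array, was read as no estimate. A log ratio gives no level, so the labelled tissue could not be checked against its markers. The array correlations over genes were 0.752, 0.687 and 0.594, and the mouse pair with the lowest was 12 and 13.

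MHC class I molecules consist of a heavy chain and the light chain beta-2 microglobulin, and they display peptides from the cell's own proteins on nearly all cells. The proteasome cuts these peptides, the TAP transporter carries them into the endoplasmic reticulum, and tapasin holds an empty class I molecule at the transporter until a peptide fits. MHC class II molecules display peptides from material taken up by the cell. They are found mainly on dendritic cells, macrophages and B cells, and they are assembled with the invariant chain, which blocks their groove until lysosomal proteases remove it. Tubule cells of the inflamed kidney are also known to display both classes. RNA of a whole organ cannot tell more cells of a type from more RNA per cell.

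Of the 10 genes, 8 had a row with a value on all 3 arrays, and their 10 complete rows carry the values below. The class I heavy chains H2-D1 and H2-Q7 had the highest values of the family, followed by the loading gene Tap2 and the heavy chain H2-K1. Class II genes were nearer to 0, and the loading gene Tapbp had a mean below 0. The mean over mice was above 0 for 7 of the 8 genes, and 6 of the 8 were above 0 in each mouse, which holds for 27.8% of all 7235 genes measured on 3 arrays. The median of the 8 means was 0.35, beside -0.0014 over all genes (5th and 95th percentiles -0.38 and 0.38). These counts describe genes chosen from this contrast and are no evidence of a shift.

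**Figure D1:**
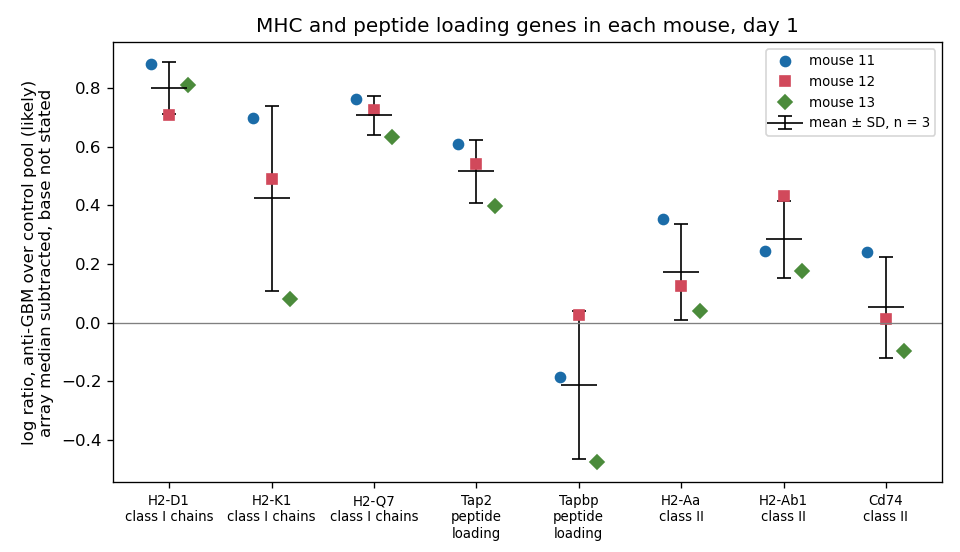
Centred log ratio of each gene (vertical axis, base not stated) in mice 11, 12 and 13, with the mean and SD over n = 3 mice as bars. H2-D1 and H2-Q7 lie between 0.63 and 0.88 in every mouse, and Tapbp is the member with a mean below 0.

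H2-D1 encodes a classical class I heavy chain. Its log ratio was 0.88 in mouse 11, 0.71 in mouse 12 and 0.81 in mouse 13, a mean of 0.80 ± 0.09 (SD, n = 3). All 3 mice stood far from 0 and close together, and the gene ranked 49 from the top among 7235. For a logarithm of base 2 the mean is a 1.74-fold ratio, and for base 10 a 6.31-fold ratio.

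H2-Q7 encodes a class Ib chain of the Qa-2 type, which is held at the membrane by a lipid anchor. It was at 0.76, 0.73 and 0.63 in mice 11, 12 and 13, a mean of 0.71 ± 0.07 (SD, n = 3), at rank 67. Its 3 mice differed less from each other than those of any other member, and the fold is 1.63 for base 2 or 5.08 for base 10.

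H2-K1, the other classical heavy chain measured, had 2 rows that did not behave alike. Row 9671 was at 0.79, 0.78 and 0.56 in mice 11, 12 and 13 (mean 0.71 ± 0.13, SD, n = 3), in the range of H2-D1 and H2-Q7. Row 12937 was at 0.61, 0.20 and -0.39 (mean 0.14 ± 0.50, SD, n = 3). Mouse 11 was high on both rows, whereas mouse 13 was high on the first and below 0 on the second. The gene mean over both rows was 0.70, 0.49 and 0.08, or 0.42 ± 0.31 (SD, n = 3), and it is 0.71 when row 9671 alone stands for the gene. Around row 12937 the median of the rows within 50 row numbers was -0.14 in mouse 13, and the row was still at -0.26 after that median was subtracted.

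A further 2 rows name H2-K1 and H2-D1 together with LOC547349, a class I gene model, and belong to none of the 10 genes by the selection rule. They are given because they fall just outside it. Row 13031 was at 0.84, 0.81 and 0.75 in mice 11, 12 and 13, and row 16077 at 0.36, 0.46 and 0.43. Both were above 0 in every mouse and both were tight, with means of 0.80 ± 0.04 and 0.42 ± 0.05 (SD, n = 3). The reference table also lists H2-D1 as an older name of H2-K1 and the reverse. Class I heavy chain genes are known to be alike over long stretches, so a row named for one can bind transcripts of another, and the rows may not be independent measurements of separate genes. BALB/c mice carry another MHC haplotype than the C57BL/6J reference, and how that changes binding to each probe was not tested.

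**Figure D2:**
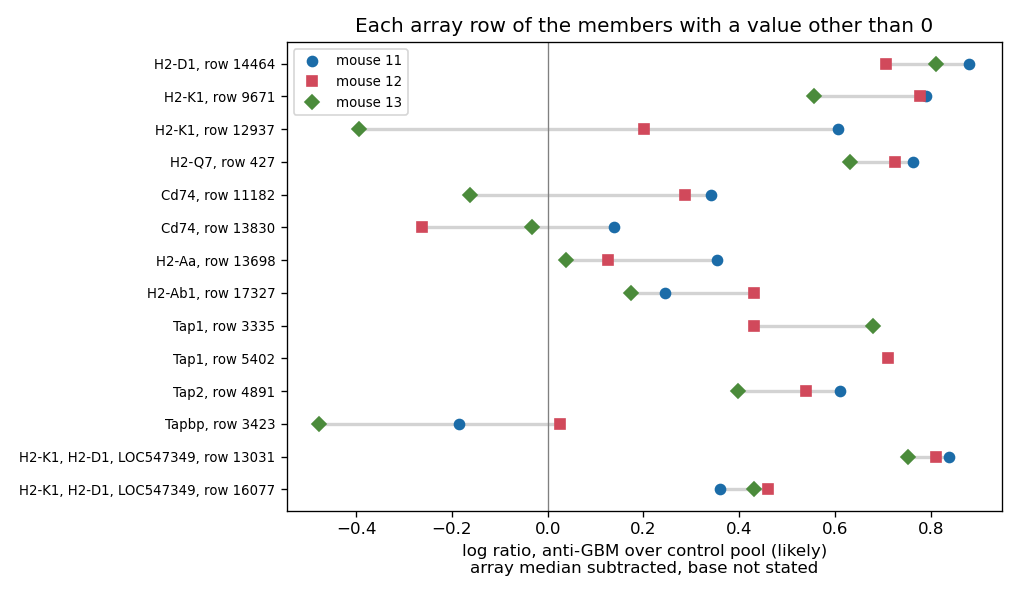
Centred log ratio (horizontal axis, base not stated) of every row of the 10 genes that has a value other than 0, and of the 2 rows naming several class I genes, with 1 point per mouse and a grey bar over their range. The range is widest for H2-K1 row 12937, from -0.39 to 0.61, and Tap1 has values for mice 12 and 13 only.

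Beta-2 microglobulin, the light chain of every class I molecule, could not be followed. Both rows of B2m were listed at 0 on all 3 arrays, so neither a rise nor an equal level can be read from them.

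The promoters of the class I heavy chains are shown beside that of the class II gene H2-Aa. The control elements of both classes are well described, and the class means of the family differ, though H2-K1 and H2-Ab1 overlap over mice. Whether promoter sequence bears on the values was not tested. Each sequence holds the 250 bases before a start site of the RefSeq promoter table (GRCm38.p6, a C57BL/6J genome), 5′ to 3′ on the gene's strand. H2-K1 has 2 entries there, and the one nearer to the annotated 5′ end of the gene is shown. Its whole window, and the last bases of the H2-Q7 window, lie inside the annotated span of the gene. Capitals mark 4 motifs on either strand. GGGGATTCCC is the kappa B site of class I enhancer A, which binds NF-kB. AGTTTCACTTC is the interferon consensus sequence beside it, which binds interferon regulatory factors. TGACG is the core of a cyclic AMP response element, found in the X box of class II genes and in site alpha of class I genes. CCAAT is the core of the Y box, which binds NF-Y. The H2-D1 window is chr17:35262844-35263093 on the + strand, that of H2-K1 chr17:34000348-34000597 on the - strand, that of H2-Q7 chr17:35438905-35439154 on the + strand, and that of H2-Aa chr17:34287824-34288073 on the - strand.
H2-D1: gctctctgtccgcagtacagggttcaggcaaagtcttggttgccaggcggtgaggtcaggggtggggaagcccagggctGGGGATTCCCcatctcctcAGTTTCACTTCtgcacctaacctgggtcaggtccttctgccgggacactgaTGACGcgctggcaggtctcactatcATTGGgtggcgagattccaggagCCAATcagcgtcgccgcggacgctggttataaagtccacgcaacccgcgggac
H2-K1: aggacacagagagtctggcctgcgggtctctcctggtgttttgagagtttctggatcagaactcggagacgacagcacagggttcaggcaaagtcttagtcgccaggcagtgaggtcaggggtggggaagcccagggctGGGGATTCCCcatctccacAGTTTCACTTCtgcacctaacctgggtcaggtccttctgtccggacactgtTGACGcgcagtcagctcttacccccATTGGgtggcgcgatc
H2-Q7: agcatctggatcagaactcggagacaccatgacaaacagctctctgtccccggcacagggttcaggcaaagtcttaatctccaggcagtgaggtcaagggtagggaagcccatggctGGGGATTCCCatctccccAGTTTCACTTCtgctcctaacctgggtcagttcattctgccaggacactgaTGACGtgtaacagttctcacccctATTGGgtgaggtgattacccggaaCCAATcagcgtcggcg
H2-Aa: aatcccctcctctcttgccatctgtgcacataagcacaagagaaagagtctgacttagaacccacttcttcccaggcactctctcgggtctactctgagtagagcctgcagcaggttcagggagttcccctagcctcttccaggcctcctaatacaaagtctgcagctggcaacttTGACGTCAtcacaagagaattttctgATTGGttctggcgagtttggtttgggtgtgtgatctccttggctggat

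Of the 10 genes, 7 have an entry in the promoter table, while Tap2, H2-Ab1 and Cd74 have none, so H2-Aa alone stands for class II. GGGGATTCCC was found before H2-D1, H2-K1 and H2-Q7 and in none of the other 4, and so was AGTTTCACTTC. In the 32851 promoter windows of the table, several of which can belong to 1 gene, the shares were 0.0852% and 0.0426%. CCAAT was found in all 7 and TGACG in 6, beside 33.8% and 17.8% of all windows. In H2-Aa the TGACG cores of the 2 strands overlap. In the class I windows no motif overlaps another. Counted from the start site that the table gives, with -1 the base before it, the kappa B site begins at -171 in H2-D1, at -111 in H2-K1 and at -133 in H2-Q7, and these positions move with the start site chosen. The aligned parts of the 3 class I windows were 85.8% to 88.2% identical, so a motif common to them is not a separate finding for each gene. The interferon and kappa B letters were copied from the H2-D1 window after these sequences were read, so finding them there was fixed in advance. Both were searched as exact strings, and variants of either site were not looked for. A promoter without the exact letters may thus still hold such a site. The marked letters are text in a reference genome and say nothing about binding in these kidneys.

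Tap2, a subunit of the peptide transporter TAP, was at 0.61, 0.54 and 0.40 in mice 11, 12 and 13, a mean of 0.52 ± 0.11 (SD, n = 3). Every mouse was above 0, and the gene ranked 151 of 7235. Its partner subunit Tap1 had no complete row. Row 3335 was listed at 0 for mouse 11 and was at 0.43 and 0.68 in mice 12 and 13. Row 5402 had a value only in mouse 12, at 0.71. The 3 values that exist for Tap1 are all above 0, but they cover different mice.

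Tapbp encodes tapasin, which bridges the transporter and the class I molecule. It was at -0.19 in mouse 11, 0.03 in mouse 12 and -0.48 in mouse 13, a mean of -0.21 ± 0.25 (SD, n = 3). The mice lay on both sides of 0, and without mouse 13 the mean was -0.08. Tap2 and Tapbp thus did not move as a pair: Tap2 was above Tapbp in each mouse.

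H2-Ab1, the beta chain of the class II molecule I-A, was at 0.24, 0.43 and 0.17 in mice 11, 12 and 13, a mean of 0.28 ± 0.13 (SD, n = 3). H2-Aa, the alpha chain of the same molecule, was at 0.35, 0.13 and 0.04, a mean of 0.17 ± 0.16 (SD, n = 3). Both chains were above 0 in each mouse, but mouse 12 was the highest for the beta chain and mouse 11 for the alpha chain, and the 2 sets of values overlap. Without mouse 11 the mean of H2-Aa was 0.08. H2-Ab1 ranked 689 and H2-Aa 1439.

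Cd74, the invariant chain, had 2 rows, of which row 11182 was at 0.34, 0.29 and -0.16 in mice 11, 12 and 13. Row 13830 was at 0.14, -0.26 and -0.03. The rows lay on opposite sides of 0 in mouse 12, and row 13830 is the only row of the 14 in a stretch dense with very low rows, where at least 3 other rows with a mean below -1 lie within 100 row numbers. The gene mean was 0.05 ± 0.17 (SD, n = 3), with 0.24, 0.01 and -0.10 in mice 11, 12 and 13, and it was -0.04 without mouse 11. Neither row gives a steady direction.

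**Figure D3:**
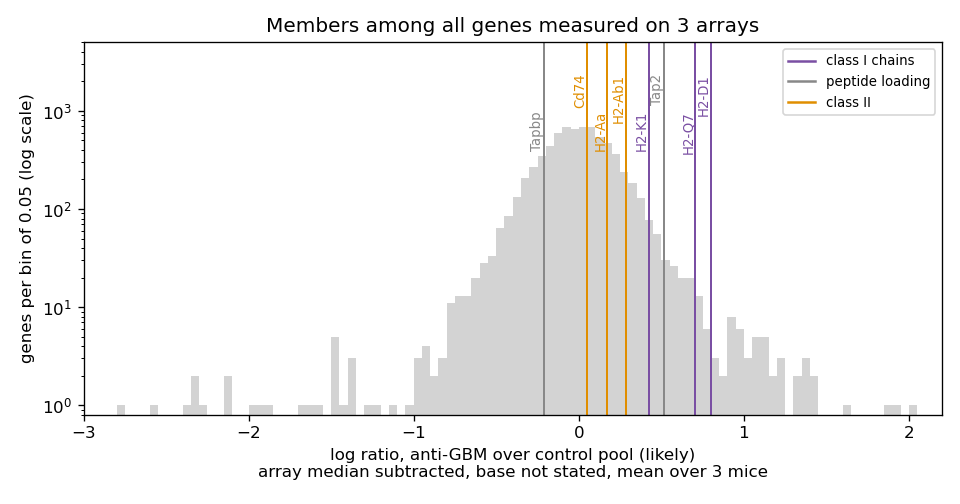
Histogram of the mean centred log ratio over 3 mice (horizontal axis, base not stated) for all 7235 genes measured on 3 arrays, in bins of 0.05 on a logarithmic count axis, with a coloured line at each member by role. H2-D1 and H2-Q7 lie in the upper tail at 0.80 and 0.71, and Cd74 lies near the centre at 0.05.

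Within each array, class I and class II values share the pool, the dyes and the centring, so their difference does not depend on the median chosen. The mean over the 3 measured class I heavy chains was 0.78, 0.64 and 0.51 in mice 11, 12 and 13. The mean over H2-Aa, H2-Ab1 and Cd74 was 0.28, 0.19 and 0.04. Class I thus stood above class II in each mouse, and both were highest in mouse 11 and lowest in mouse 13. The difference was 0.50, 0.45 and 0.47, a mean of 0.47 ± 0.03 (SD, n = 3). The spread of the difference is smaller than that of either class (0.14 for class I and 0.12 for class II). It belongs to the averages over genes. Single pairs of a class I and a class II gene varied more over mice, with SDs from 0.11 (H2-Q7 against H2-Aa) to 0.28 (H2-K1 against H2-Ab1). The SD of 0.03 covers these 3 arrays and not the choice of genes, because the genes were chosen with these values known.

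**Figure D4:**
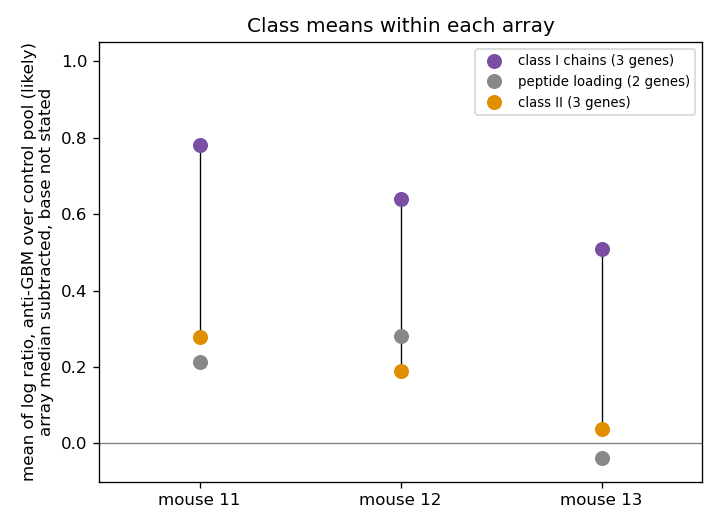
Mean centred log ratio (vertical axis, base not stated) of the class I heavy chains, of Tap2 with Tapbp, and of the class II genes in mice 11, 12 and 13 (horizontal axis), with a line from class II to class I. The line spans 0.45 to 0.50 in each mouse, while both of its ends are lowest in mouse 13.

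Gene by gene, the 9 pairs of a class I heavy chain with a class II gene differed by 0.14 to 0.75, and 8 of the 9 had class I above class II in each mouse. The exception was H2-K1 against H2-Ab1, at 0.45, 0.06 and -0.09 in mice 11, 12 and 13. The pairs share genes and are not separate measurements. The size of the class difference depends on which genes stand for class I: with Tap2 and Tapbp added it was 0.28. With 1 row per gene it was 0.53, a mean whose spread over mice was not computed. That setting keeps the lowest row number among equally complete rows, here row 9671 of H2-K1 and row 11182 of Cd74. The choice is arbitrary. Row 12937 of H2-K1, at a mean of 0.14 beside 0.71 for row 9671, was not tried in its place and would make the difference smaller.

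Mouse 13 had the lowest value for 7 of the 8 genes, H2-D1 being the exception, and 39.1% of all genes were lowest in that mouse. Mouse 11 had the highest value for 6 of the 8, beside 29.4% of all genes. The standard deviation over mice exceeded the median of all genes (0.13) for 5 of the 8, with H2-D1, H2-Q7 and Tap2 below it.

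Other genes of antigen presentation came from 7 lists written from textbook knowledge with earlier results of these data known. They hold 62 genes, of which 51 had a row and 40 were measured on all 3 arrays. By limma's moderated test of the log ratio against 0, with Benjamini-Hochberg adjusted p under 0.05 over all 7235 genes, 10 of the 40 were higher and 1 was lower, while 29 missed the threshold. Over all genes 9.48% were higher and 9.97% lower, together 19.4%. In the lists 25.0% were higher, above that background, and 2.5% lower, below it. As the lists were written with earlier results known, these shares are a description and no test. Of the 10 higher genes 6 are class I or class I-like chains, and some of their rows may not be independent. At an unadjusted p under 0.05 no list gene but Socs1 was lower. The share of all genes past this unadjusted cut was not counted, so counts at that cut stand without a background. That share cannot be smaller than the 9.48% higher and 9.97% lower of the adjusted cut. The median of the 40 was 0.10. Of the 10 higher genes, 5 kept their call whichever mouse was left out. Without mouse 12, or with an exact 0 used as a value, 6 were higher, and without moderation of the variances 0 of the 40 and 3 of all genes passed.

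The other class I chains held most of these calls. There were 6 higher and 0 lower among 13 measured genes, with 7 not past the threshold, and the median was 0.22. The Qa-region genes H2-Q1 (0.62 ± 0.07, adjusted p = 0.00289) and H2-Q4 (0.51 ± 0.17, adjusted p = 0.00904) were higher, and so was Fcgrt (0.39 ± 0.10, adjusted p = 0.0145), the class I-like receptor that carries immunoglobulin G (limma, n = 3). All 3 were past the threshold with any 1 mouse left out. H2-M3 (0.48 ± 0.31), which presents formylated peptides, lost its call without mouse 12 (adjusted p = 0.072 by limma). H2-Q10 (0.33 ± 0.12) lost it without mouse 11 (adjusted p = 0.202), and H2-Q8 (0.31 ± 0.12) when either mouse 11 or mouse 12 was dropped (adjusted p = 0.233 by limma at most). Whether rows of the Qa-region genes also bind transcripts of H2-D1 or H2-K1 was not tested.

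Of the 7 class I chains that missed the threshold, H2-Q2 was at 0.22 ± 0.04 (adjusted p = 0.065) and the iron regulator Hfe at 0.19 ± 0.10 (adjusted p = 0.109, limma, n = 3). Both had an unadjusted p under 0.05, by which 8 of the 13 were higher, with the share of all genes at that cut not counted. H2-Q2 was above 0 in each mouse. The 4 rows of H2-T22 ranged from -0.13 to 0.36 in their means, and both rows of H2-T23 were below 0 in mouse 13, at -0.27 and -0.79. The latter row is number 12940, close in row number to row 12937 of H2-K1, which was below 0 in the same mouse. Whether close row numbers lie close on the array is not known here, and a shared local effect was not tested.

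Among genes upstream of the transporter, Psmb8 (0.60 ± 0.21, adjusted p = 0.00701 by limma, n = 3), a catalytic subunit of the immunoproteasome, was higher in all 3 mice, at 0.84, 0.50 and 0.46. The other immunoproteasome subunit with values, Psmb10, did not pass (0.10 ± 0.14). The rows of Psmb9 and of the proteasome activator Psme1 were listed at 0 on all arrays. Of the 4 class I folding and trimming genes measured none passed, and none had an unadjusted p under 0.05. The trimming peptidase Erap1 was at 0.09 ± 0.11 and the disulphide isomerase Pdia3 at 0.09 ± 0.06.

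The other class II chains did not pass the test in any of 3 measured cases, although H2-DMa and H2-Eb1 had an unadjusted p under 0.05. H2-DMa, which exchanges peptides on class II, was at 0.33 ± 0.30 (adjusted p = 0.0767 by limma), and H2-Eb1, the beta chain of I-E, at 0.22 ± 0.20 (adjusted p = 0.131, n = 3). Mouse 13 was the lowest for both, at 0.06 and -0.01. Without that mouse both were past the threshold (adjusted p = 0.0361 for H2-DMa and 0.0452 for H2-Eb1 by limma). Of 4 measured class II processing enzymes 2 were higher and 0 lower. Cathepsin S (Ctss), the protease that cuts the invariant chain, was at 0.48 ± 0.13 (adjusted p = 0.00904), with rows at 0.47 and 0.48. Cathepsin D (Ctsd) was at 0.39 ± 0.14 (adjusted p = 0.0187) and missed the threshold when either mouse 12 or mouse 13 was dropped (adjusted p = 0.0549 by limma at most). Ctsl was at -0.13 ± 0.19 and Ctsb at 0.05 ± 0.25, with mice on both sides of 0.

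**Figure D5:**
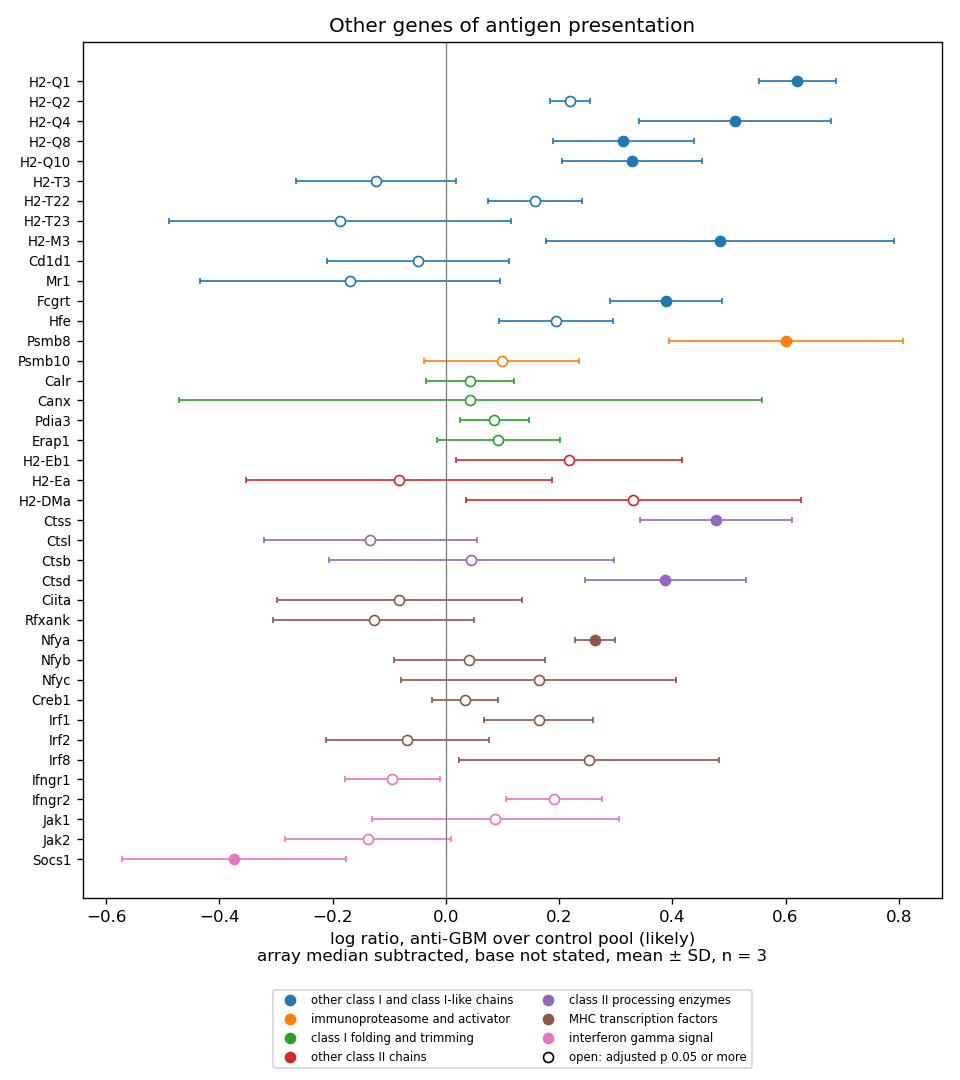
Mean centred log ratio ± SD over n = 3 mice (horizontal axis, base not stated) of the 40 other genes of antigen presentation, coloured by list, with filled points past an adjusted p of 0.05 by limma. The filled points above 0 are 10 genes, 6 of them class I or class I-like chains, and the filled point below 0 is Socs1 at -0.37.

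Of 9 transcription factors of MHC genes 1 was higher and 0 were lower. It was Nfya, a subunit of the Y box factor (0.26 ± 0.03, adjusted p = 0.0384 by limma), whose call ended with any mouse left out (adjusted p = 0.16 at most) and also once the local median was taken off. The interferon regulatory factors Irf8 (0.25 ± 0.23) and Irf1 (0.16 ± 0.10) did not pass. Irf8 had an unadjusted p under 0.05 and was past the threshold without mouse 13 (adjusted p = 0.0444 by limma). Ciita, the master regulator of class II genes, was at -0.08 ± 0.22 and was named after its value was seen. Of 5 genes of the interferon gamma signal 0 were higher and 1 was lower by limma, and at an unadjusted p under 0.05 Ifngr2 was higher too. Ifngr2, a receptor chain, was at 0.19 ± 0.09 and the kinase Jak2 at -0.14 ± 0.15. The lower gene was Socs1, the feedback inhibitor of the pathway (-0.37 ± 0.20, adjusted p = 0.0291), and it lost its call without mouse 12 (adjusted p = 0.0903 by limma). It lost it too when 1 of its 2 rows stood for it (adjusted p = 0.207). Ifng itself had 1 value other than 0 among its 2 rows, -0.05 in mouse 11.

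Markers of cells that carry class II molecules were looked at beside these values. Of 12 macrophage markers 9 were measured, of which 3 were higher (Lyz2, Mpeg1 and Aif1), 1 was lower (Csf1r, -0.72 ± 0.33) and 5 did not pass, with list medians of 0.33, -0.01 and 0.12 in mice 11, 12 and 13. At an unadjusted p under 0.05, 5 of the 9 were higher, with C1qa (0.22 ± 0.21) and C1qb (0.27 ± 0.26) added. The share of all genes at that cut was not counted. The calls of the 3 higher ones ended with mouse 11 left out (adjusted p = 0.123, 0.246 and 0.251 by limma). Aif1 was at 0.07 with 1 row per gene. Cd68 and Cd14 had no complete row. Of 8 dendritic cell markers 3 were measured, with 0 higher and 1 lower, Xcr1 (-0.46 ± 0.24), a call that ended without mouse 11 or 12, and with medians of -0.24, -0.16 and -0.18. Itgax, Flt3 and Ccr7 had no complete row. No dendritic cell marker was higher at an unadjusted p under 0.05 either, and at that cut Batf3 (-0.21 ± 0.16) was lower besides Xcr1. Of 8 B cell markers 2 were measured, Ighm, which was lower (-0.50 ± 0.07, from 3 rows at -1.32, -0.12 and -0.06), and Cd22, which did not pass (-0.18 ± 0.13), and Ms4a1, Cd79a, Cd79b, Pax5 and Blk had no complete row. Their medians were -0.26, -0.31 and -0.45. The part of these cells in the class II values was not tested.

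Among 5 measured markers of T and NK cells 2 were higher, Gzma (0.65 ± 0.27) and Cd4 (0.34 ± 0.15), whose call ended without mouse 11 or 13, and 0 were lower, also at an unadjusted p under 0.05 (limma). Of 7 measured neutrophil markers 2 were higher (S100a9, 1.42 ± 0.38, and S100a8, 0.56 ± 0.06) and 2 were lower (Ltf and Ngp), Ngp losing its call without mouse 11 or 12 by limma. At an unadjusted p under 0.05 Cxcr2 (-0.19 ± 0.08) was lower too. The 2 rows of S100a8 disagreed, at means of 1.11 and 0.01, and with 1 row per gene its value is 1.11.

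The genes outside the family whose values over the 3 mice were nearest to those of H2-D1 by Euclidean distance were Nr4a1 (distance 0.13), Axl (0.13), Mcm3 (0.16), Fgfbp1 (0.18) and Fbxo5 (0.19). With 3 arrays such a match is a description of 3 numbers per gene.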

How the data were processed

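Kidney RNA of 3 anti-GBM mice was measured against 1 control pool on 2-colour arrays. The authors deposited 1 value per row and array. It is read as a log ratio from its sign and spread, while scanner, background correction, normalization, flags and base are named in no source used here. Rows were named from the platform annotation: 13738 name 1 gene, 52 several and 2491 are not listed. The 9682 rows not at 0 on any of the 3 arrays were kept, centred on each array's median of values other than 0 and averaged per gene, which left 7235 genes. Log ratios were tested against 0 by limma 3.58.1 under R 4.3.3 (lmFit and eBayes on an intercept), adjusted by Benjamini-Hochberg with a threshold of 0.05. The fit was checked on simulated data. Python 3.11.15, pandas 2.3.3, numpy 2.4.6 and matplotlib 3.10.9 did the rest. The members, the lists and the alternatives were chosen with earlier results of these data known. Named genes are all members, list genes past the threshold, up to 2 others per list with the smallest p, and the 5 nearest to H2-D1. Others are named where said. Signal brightness was not used here. Promoters came from RefSeq (GRCm38.p6). No gene coordinates are printed, since no source names the genome build of the probes. The number of arrays limits the precision.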

Additional observations from a re-analysis of the deposited data

How the results depend on the processing

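Across the 6 alternatives to the row handling and centring and the 3 fits with a mouse left out, the 8 member means were recomputed 72 times, of which 29 equal the value reported because the alternative did not touch the rows in use. The other 43 all lay within 1 SD of the value reported. For means with 1 mouse left out this was fixed: dropping 1 of 3 mice cannot move a mean by 1 SD. Leaving out the centring moves a mean only by the array medians, which are near 0, so neither tells of stability. The mean of Cd74 changed sign once: with 1 mouse left out it ranged from -0.0426 (without mouse 11) to 0.126 (without mouse 13). Of the 12 alternatives for the class difference, 3 (no centring, an exact 0 used as a value, rows on 2 or 3 arrays) leave it at 0.47 by construction. Under the other 9 class I stood above class II, by 0.28 with Tap2 and Tapbp added, 0.42 without Cd74, 0.44 without H2-Q7, 0.53 with 1 row per gene, 0.44 without rows in crowded stretches and 0.46 to 0.49 with 1 mouse left out. The counts over all genes, 686 higher and 721 lower, were 315 and 307 with an exact 0 used as a value, and 2 and 1 without moderation. With 1 mouse left out they were 355 to 541 higher and 371 to 539 lower. The 10 higher genes of the antigen presentation lists became 6 with an exact 0 used as a value and 6 to 11 with 1 mouse left out. The lower one, Socs1, became 0 with an exact 0 used as a value and with 1 row per gene, and 0 to 1 with 1 mouse left out. The cause was not tested, except that fewer arrays leave less power. With an exact 0 used as a value, rows listed at 0 on all arrays stayed out. Signal over background was not used here, so which rows were dim is unknown. No paired analysis was possible because there is 1 group.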

Other observations

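Other class I rows stood outside the lists fixed here and are given as values, chosen after they were seen. H2-Q5 had 4 rows. Row 13035 was at 0.53, 0.56 and 0.32 in mice 11, 12 and 13, and row 17904 at 0.27, 0.87 and 0.44. Row 14911 was listed at 0 for mouse 11 and was at 0.63 and 0.30 in the others. Row 12208 of the same symbol went the other way in every mouse, at -0.66, -0.65 and -0.22. H2-D4 was at 0.38, 1.13 and 0.32. The 2 rows of H2-M9 were on opposite sides of 0 in every mouse, at means of -0.28 and 0.26. H2-T9 was at 0.10 and H2-M1 at 0.02 on average. Both H2-K2 and H2-M10.1 lacked a complete row. The row of H2-K2 was listed at 0 on all arrays. For H2-M10.1, row 15331 was at -2.44 and -1.26 in mice 12 and 13 and lies in a stretch dense with very low rows. Its row 9928 had a value only in mouse 11, at 0.24.

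Rows of 1 class I symbol thus gave opposite signs in the same RNA for H2-Q5 and H2-M9, and in mouse 13 for H2-K1. Among the lists, rows 600 (0.35, 0.35 and 0.37) and 18002 (-0.01, -0.13 and -0.27) of H2-T22 did so in every mouse, though row 18002 was close to 0 in mouse 11. The rows of H2-T23 did so in mice 11 (0.10 and -0.02) and 12 (0.08 and -0.22). Rows of Hfe did so in mouse 13 (0.24 and -0.08), and rows 211 and 11466 of H2-T3 in mouse 11 (-0.39 and 0.03). A gene mean over such rows, as for H2-K1, hides the disagreement.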
